A study of Mus musculus with 11 samples.

Results

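Sox1, Sox21, Olig1, Olig2, Neurog1, Neurog2 and Neurod1 encode transcription factors of the neural lineage, and their 5-hydroxymethylcytosine (5hmC) was followed here while mouse embryonic stem (ES) cells became epiblast-like cells (EpiLC). The 7 genes and the gene lists used below were chosen with earlier results of these data known. Their counts beside those of all genes are therefore a description. The 7 genes are given by name, and the rule that collects their tiles uses no measured value. Each was read in the 2 kb tiles that overlap its annotated span plus 2 kb on either side in the mouse build GRCm38. This gave 32 tiles of 1362779 deposited, all of which passed the filter on low signal, and 7 genes of the 20717 protein-coding genes tested.

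Sox1 and Sox21 are SOX proteins, which bind DNA through an HMG box; Sox1 marks early neuroectoderm and neural progenitors, and Sox21 acts with other SOXB proteins in the balance between progenitor upkeep and neuronal differentiation. The other 5 are basic helix-loop-helix (bHLH) factors, which bind E-box sites as dimers with the widely expressed E proteins. Olig1 and Olig2 are neighbours that act in the oligodendrocyte lineage, Olig2 also in motor neuron progenitors; Neurog1 and Neurog2 are proneural factors that start neuronal differentiation; Neurod1 acts after them in differentiating neurons. None of them marks the ES cell or EpiLC state. 5hmC is made from 5-methylcytosine by the TET dioxygenases, so a site carries it only where DNA methylation has been laid down and is being oxidised.

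The libraries came from 2 wild-type lines, DNMT_WT and TET_WT, the parental lines of knockouts of Dnmt1, Dnmt3a and Dnmt3b and of Tet1, Tet2 and Tet3. DNMT_WT was sampled as EpiLC at day 2 (3 libraries). TET_WT was sampled as ES cells in 2i/Lif at day 0 (3 libraries), as EpiLC at day 1 (2 libraries, numbered 2 and 3) and as EpiLC at day 2 (3 libraries). The line and anything else that differed in its handling cannot be told apart, and the labels do not say whether replicates were separate cultures, so p-values measure the spread between these libraries. The knockout lines and embryoid bodies were not analysed here.

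The assay, HMCP-seq, captures DNA fragments that carry 5hmC and sequences them. Signal is given as log2 RPKM, in which the reads of a tile are divided by its length and by the reads of its library, and the log2 values of a gene's tiles were averaged to a gene value. Because each library is set to its own total, a change in all 5hmC of a cell would not be seen. The libraries held 7342015 to 51604034 reads, with a median of 2 to 13 reads per tile and 236 to 2405 reads in the 32 tiles. The lowest of each range belonged to TET_WT day 1 replicate 2. Day 0 replicate 2 stood apart from the other day 0 libraries: its reads over genes differed from theirs by a chi-square of 30.2 and 30.9 per degree of freedom, against 4.66 between replicates 1 and 3. Values without these libraries are given for some of the calls and signs they change. Without day 0 replicate 2 further tiles were called higher (limma adjusted p in brackets). For day 2 against day 0 this was the tile upstream of Olig2 (0.0256). For day 2 against day 1 these were tiles over Olig2 (0.0239), Olig1 (0.0409) and Neurog1 (0.0304). Between the lines it was a tile inside Sox1 (0.0276). The tiles over Olig2, Olig1 and Neurog1 and the tile inside Sox1 were also called without day 0 replicate 1 (0.0146, 0.0395, 0.0399 and 0.0411). Without day 0 replicate 3 those of Olig2, Neurog1 and Sox1 were called in the same comparisons (0.0259, 0.0422 and 0.0446). Changes without day 1 replicate 2, which leaves 1 library at day 1, are not all given.

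The promoters show how much CG sequence, the substrate of methylation and of 5hmC, lies at the starts of these genes. RefSeq promoter sequences (GRCm38.p6, from 250 bases before to 50 after the start) were matched for 6 of the 7 genes; Olig1 was not matched. The start used for Neurog2 lies inside its annotated span, which begins at chr3:127632733, so its sequence is that of 1 start within the gene and not of the span's edge. The 300 bases held 37 CG in Sox1, 32 in Neurog1, 26 in Neurod1, 25 in Olig2, 22 in Sox21 and 10 in Neurog2, against a median of 7 over 32851 promoters. As many CG as in Sox1 were found in 5.58% of all promoters, as many as in Olig2 in 18.4%, as many as in Sox21 in 23.1% and as many as in Neurog2 in 43.5%. At least 1 CG was found in 94.6%. CG reads the same on both strands, and the search allowed no overlap because the motif cannot overlap itself. The 4 sequences below are shown for orientation. Olig2 gained most 5hmC of the 7 genes, in the tiles after this start. Sox1 had the lowest p of the 7 between the lines, Sox21 had almost no reads over its start, and Neurog2 had the fewest CG of the 6 and the lowest signal. The tiles that hold the Olig2 and Sox1 sequences were not called in those comparisons, and no relation between CG number and signal was tested. They run 5′ to 3′ on the strand of the gene, with each CG in capitals.
Olig2, chr16:91225300-91225599, plus strand: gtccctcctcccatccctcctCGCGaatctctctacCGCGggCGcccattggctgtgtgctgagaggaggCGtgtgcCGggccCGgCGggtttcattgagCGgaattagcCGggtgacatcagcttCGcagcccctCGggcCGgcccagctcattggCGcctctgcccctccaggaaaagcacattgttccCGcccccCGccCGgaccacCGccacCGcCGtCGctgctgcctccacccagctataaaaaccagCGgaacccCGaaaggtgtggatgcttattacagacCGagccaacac
Sox1, chr8:12395269-12395568, plus strand: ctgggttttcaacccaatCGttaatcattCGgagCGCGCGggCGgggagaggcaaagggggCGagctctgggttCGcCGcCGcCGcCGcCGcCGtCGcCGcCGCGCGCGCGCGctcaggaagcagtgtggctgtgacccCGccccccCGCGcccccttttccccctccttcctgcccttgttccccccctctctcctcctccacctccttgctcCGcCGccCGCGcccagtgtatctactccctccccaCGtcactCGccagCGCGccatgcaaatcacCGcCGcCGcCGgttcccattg
Sox21, chr14:118236981-118237280, minus strand: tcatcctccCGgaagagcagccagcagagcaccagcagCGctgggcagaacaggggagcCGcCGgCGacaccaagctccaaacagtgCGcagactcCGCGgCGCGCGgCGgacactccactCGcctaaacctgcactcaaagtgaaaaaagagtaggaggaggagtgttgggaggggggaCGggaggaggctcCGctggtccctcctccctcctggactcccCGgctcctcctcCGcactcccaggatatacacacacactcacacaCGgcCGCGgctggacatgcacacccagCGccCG
Neurog2, chr3:127632886-127633185, plus strand: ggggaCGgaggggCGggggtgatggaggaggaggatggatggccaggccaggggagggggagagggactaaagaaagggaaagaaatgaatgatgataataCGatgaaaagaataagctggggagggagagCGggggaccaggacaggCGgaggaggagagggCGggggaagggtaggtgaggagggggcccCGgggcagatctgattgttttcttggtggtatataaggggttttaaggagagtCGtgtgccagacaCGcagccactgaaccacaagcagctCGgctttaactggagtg

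In TET_WT cells 5hmC rose at the OLIG pair and at Sox1 by day 2, and the other 4 genes did not pass the test. By limma with Benjamini-Hochberg adjustment over all genes, 3 of the 7 genes were called higher at day 2 than at day 0 and 0 lower. Over all genes, 15.3% were called higher and 2.51% lower. Without day 0 replicate 2, 4 of the 7 genes and 22% of all genes were called higher, and 9.56% of all genes lower. The groups did not overlap in the same 3 genes, against 23.6% of all genes not overlapping in the higher direction. The median difference of the 7 genes was 0.58, against 0.09 over all genes tested.

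Olig2 (chr16:91225550-91228677), the factor of motor neuron and oligodendrocyte progenitors, changed most of the 7 genes. Its gene value was 0.63, 0.99 and 0.50 log2 RPKM in the day 2 libraries, against -1.48, -0.76 and -1.02 in the day 0 libraries. The lowest day 2 library lay well above the highest day 0 library. The difference was 1.79 (SE 0.22, limma adjusted p = 0.000175), a fold of 3.47, and placed Olig2 at percentile 99.7 of all gene differences. Much of this size came from the gene body tile, which had 0, 3 and 2 reads at day 0 and differed by 4.49. The other Olig2 tiles differed by 1.01, 0.53, 1.97 and 0.98. The fold and percentile therefore depend on the value given to a tile close to empty. With 10 kb taken on either side the gene difference was 0.82 and still called (limma adjusted p = 0.000556). In level, Olig2 stood at percentile 75.5 of all genes at day 2, against 33.0 at day 0.

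Olig1 (chr16:91269769-91271939), which lies 41.1 kb beyond the end of Olig2, had 0.73, 0.69 and 0.43 log2 RPKM at day 2, against -0.03, 0.25 and -0.14 at day 0. The groups did not overlap, and the difference was 0.59 (SE 0.14, limma adjusted p = 0.0118), a fold of 1.51. The Olig1 call is less firm than that of Olig2. It was lost without day 2 replicate 1 (0.54, limma adjusted p = 0.0538) or day 2 replicate 2 (0.55, limma adjusted p = 0.0543). It was also lost when reads were pooled over the gene and tested with limma-voom (0.24, adjusted p = 0.201), and the value was -0.01 with 10 kb taken on either side of the gene.

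Sox1 (chr8:12395519-12399555), the early neuroectoderm factor, had 0.06, 0.04 and -0.06 log2 RPKM at day 2, against -0.80, -0.37 and -0.54 at day 0. The day 2 libraries lay close together and above each day 0 library. The difference was 0.58 (SE 0.16, limma adjusted p = 0.0229). This call was lost without day 0 replicate 1 (0.46, limma adjusted p = 0.0913), and without day 2 replicate 1, 2 or 3, where the differences were 0.56, 0.57 and 0.62 and the adjusted p 0.0733, 0.0772 and 0.0510. Centring each library on its median ended the calls of Sox1 (0.67, adjusted p = 0.0958) and Olig1 (0.68, adjusted p = 0.124), as did reads thinned to equal depth (0.45 and 0.39, adjusted p = 0.217 and 0.329). The annotation also places the long noncoding RNA gene Sox1ot over Sox1, and reads of the assay cannot be assigned to either.

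Sox21 (chr14:118233233-118237030), the other SOX gene, had -0.15, -0.04 and -0.11 log2 RPKM at day 2, against -0.01, 0.25 and -0.14 at day 0. These groups overlapped, and the difference was -0.14 (95% interval -0.57 to 0.30, limma adjusted p = 0.750). Its sign depends on the tile filter: when the lower-signal tiles of the genome were dropped, up to the median tile, the difference was 0.35 (limma adjusted p = 0.0404), a call in the other direction. The start tile had 1 read in each day 2 library, against 7, 11 and 5 at day 0, and differed by -2.10. Of the 5 Sox21 tiles, 3 were above 0.

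Neurog1, Neurog2 and Neurod1 did not pass the test between day 2 and day 0, and their replicates were wide apart. Neurog2 (chr3:127632733-127635636) had -1.93, -2.56 and -1.78 log2 RPKM at day 2, against -3.70, -2.54 and -2.55 at day 0. The difference of 0.84 had a 95% interval from 0.11 to 1.57 (limma adjusted p = 0.112), and without day 0 replicate 2 it was 1.03 and passed (limma adjusted p = 0.0416). Neurog2 had the lowest level of the 7 genes in every library, at percentile 18.9 of all genes at day 2 and 11.2 at day 0. Neurod1 (chr2:79452637-79456636) had -0.20, -1.06 and -0.15 log2 RPKM at day 2, against -0.79, -1.36 and -0.46 at day 0. The groups overlapped, with a difference of 0.40 (95% interval -0.15 to 0.96, limma adjusted p = 0.348), which passed by limma-voom (0.41, adjusted p = 0.0343). Neurog1 (chr13:56250478-56252180) had -0.09, -0.65 and -0.28 log2 RPKM at day 2, against -1.04, 0.22 and -0.24 at day 0. Its day 2 libraries all fell inside the day 0 range, and the difference was 0.02 (95% interval -0.53 to 0.56, limma adjusted p = 0.982).

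**Figure D1:**
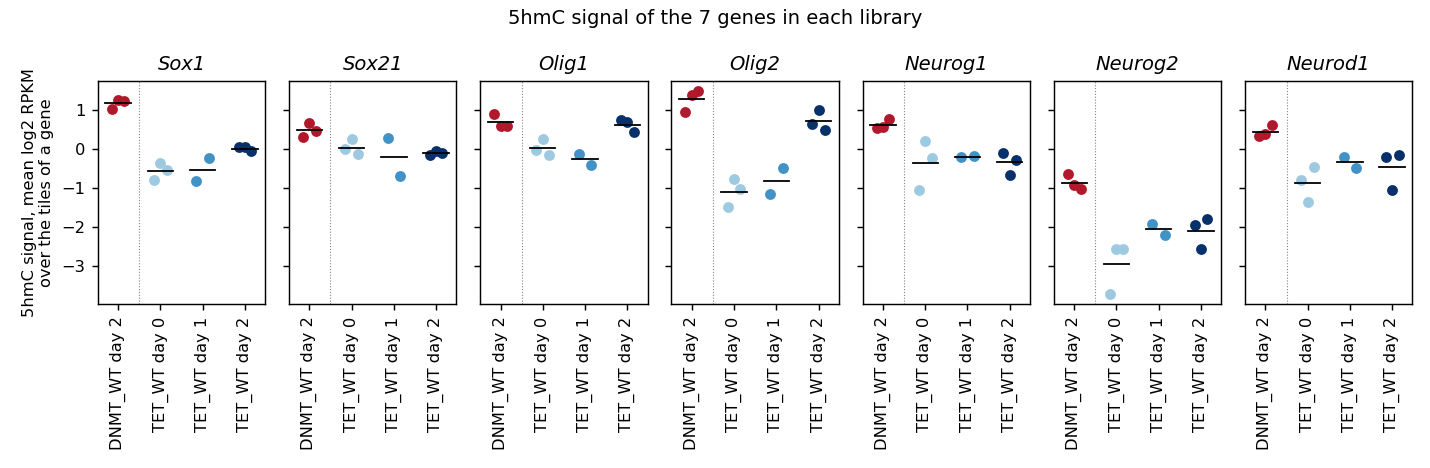
Gene values (averaged log2 RPKM of the gene's tiles) of the 7 genes in each of the 11 libraries; points are libraries, black lines group means, and the dotted line parts DNMT_WT day 2 from TET_WT days 0, 1 and 2. Olig2 is at -0.49 or below in each TET_WT library of days 0 and 1 and at 0.50 or above in each library of day 2, and Neurog2 is the lowest gene throughout.

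The OLIG genes were called higher between day 1 and day 2 but not between day 0 and day 1. Both comparisons use the day 1 libraries, and whether the steps differ was not tested. From day 0 to day 1, 0 of the 7 genes and 0% of all genes were called by limma; 2551 genes had an unadjusted p under 0.05, and limma-voom called 163. Olig2 had -1.15 and -0.49 log2 RPKM in day 1 replicates 2 and 3, a range that overlaps day 0, with a difference from day 0 of 0.27 (95% interval -0.27 to 0.81). Olig1 had -0.13 and -0.40 at day 1, and its difference from day 0 was -0.29 (95% interval -0.64 to 0.05). Neither difference was called. The other differences between day 1 and day 0 ran from -0.23 for Sox21 to 0.88 for Neurog2, whose 2 day 1 libraries, at -1.91 and -2.19, lay above its day 0 libraries (limma adjusted p = 0.369). Neurog2 is the 1 gene of the 7 whose groups did not overlap there, against 13.4% of all genes not overlapping in the higher direction.

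Between day 2 and day 1, 2 of the 7 genes were called higher and 0 lower, against 8.99% of all genes called higher and 0.599% lower. Without day 1 replicate 2 the share of all genes called higher was 4.58%, with the same number of the 7; without day 0 replicate 2 it was 14.5%, with 3 of the 7. The groups did not overlap in 3 genes, Sox1 beside the OLIG pair, against 28.2% of all genes. Olig2 was higher at day 2 by 1.53 (SE 0.25, limma adjusted p = 0.00243) and Olig1 by 0.88 (SE 0.16, limma adjusted p = 0.00439). With 10 kb of flank the Olig2 difference was 0.77 and still called (limma adjusted p = 0.00401), and that of Olig1 was 0.14 and not called (limma adjusted p = 0.454). The Olig1 call also did not hold by limma-voom (0.37, adjusted p = 0.307), at equal depth (0.63, adjusted p = 0.220), with median centring (0.92, adjusted p = 0.140) or with 2 reads added to each tile (0.54, adjusted p = 0.0890). Sox1 had -0.81 and -0.24 log2 RPKM at day 1, both under its day 2 libraries, and its difference of 0.54 was not called (95% interval 0.15 to 0.92, limma adjusted p = 0.0798). It passed without day 0 replicate 2 (limma adjusted p = 0.0470) and without day 1 replicate 3, where the difference was 0.82 (limma adjusted p = 0.0236), and was 0.25 without the shallow day 1 replicate 2 (limma adjusted p = 0.615). The differences of Sox21, Neurog1, Neurog2 and Neurod1 ran from -0.14 to 0.10 and none was called. Without day 1 replicate 2 those of Neurog2 and Neurod1 changed sign, to 0.10 and 0.013, and that of Sox21 was 0.58, none of them called.

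At day 2 the DNMT_WT cells had more 5hmC than the TET_WT cells at Sox1, Neurog1, Neurog2 and Neurod1, and the difference at Olig1 was not called. In this comparison 4 of the 7 genes were called higher by limma and 0 lower, against 14.9% of all genes called higher and 4.07% lower. Leaving day 0 replicate 2 out of the shared fit raised these shares of all genes to 21.9% and 8.09%, with 4 of the 7 genes called. The difference was above 0 for all 7 genes, as it was for 60.5% of all genes, with a median of 0.91, against 0.10 over all genes tested. The lines did not overlap in 5 of the 7 genes, against 32.8% of all genes in the higher direction. This comparison shares the TET_WT day 2 libraries with those above.

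Sox1 had 1.03, 1.26 and 1.23 log2 RPKM in DNMT_WT cells, against 0.06, 0.04 and -0.06 in TET_WT cells. The lines were apart by far more than either varied among replicates, and the difference of 1.16 (SE 0.16, limma adjusted p = 0.000538), a fold of 2.23, held its call under each alternative listed in the closing section. Sox21 had 0.31, 0.67 and 0.47 log2 RPKM in DNMT_WT cells, against -0.15, -0.04 and -0.11 in TET_WT cells. Its groups did not overlap either, but the difference of 0.58 was not called (95% interval 0.15 to 1.02, limma adjusted p = 0.0620). The start tile, with 5, 3 and 4 reads in DNMT_WT cells against 1 in each TET_WT library, differed by 1.84. The other tiles differed by 1.34, 0.06, 0.05 and -0.37, so much of the gene difference came from a tile nearly without reads. The gene difference passed when day 1 replicate 2 (limma adjusted p = 0.0125) or day 1 replicate 3 (limma adjusted p = 0.0114) was left out of the shared fit.

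Neurog2 had -0.65, -0.91 and -1.03 log2 RPKM in DNMT_WT cells, against -1.93, -2.56 and -1.78 in TET_WT cells. It remained the lowest of the 7 genes in both lines. The difference was 1.23 (SE 0.34, limma adjusted p = 0.0230), a fold of 2.34. Much of it came from tiles with few reads. The start tile, which differed by 1.61, had 47, 7 and 18 reads in DNMT_WT cells, against 10, 4 and 4 in TET_WT cells. The tile after it, at 2.36, had 26, 4 and 17, against 2, 1 and 5. Neither tile was called. The upstream tile differed by 1.59 and the downstream tile by -0.65. With only tiles at or above the median kept, 6 of the 7 genes could be tested, and Neurog2 was left out. Neurog1, the other proneural gene of its family, had 0.54, 0.56 and 0.77 in DNMT_WT cells, against -0.09, -0.65 and -0.28 in TET_WT cells, a difference of 0.96 (SE 0.25, limma adjusted p = 0.0182). Neurod1 had 0.32, 0.38 and 0.62 in DNMT_WT cells, against -0.20, -1.06 and -0.15 in TET_WT cells, a difference of 0.91 (SE 0.26, limma adjusted p = 0.0266). Part of it also came from tiles with few reads. TET_WT day 2 replicate 2, at -1.06, had 0 reads in the downstream Neurod1 tile and in the gene tile next to it. That gene tile had 9, 8 and 18 reads in DNMT_WT cells, against 5, 0 and 7 in TET_WT cells. It differed by 1.66 and was not called. In all 3 genes the lines did not overlap. The calls were near the threshold, though. Each was lost without TET_WT day 2 replicate 2, where the differences of Neurog1, Neurog2 and Neurod1 were 0.81, 0.99 and 0.61 and the adjusted p 0.0731, 0.0998 and 0.103. Neurog1 was also lost without DNMT_WT replicate 3 (adjusted p = 0.0671), Neurog2 without TET_WT day 2 replicate 1 (adjusted p = 0.0575), and Neurog2 and Neurod1 without any of the 3 DNMT_WT replicates (adjusted p from 0.0532 to 0.0961 by limma). In those fits without a DNMT_WT replicate the differences stayed about as large, at 1.12 to 1.31 for Neurog2 and 0.82 to 0.97 for Neurod1. Neurog1 also missed the threshold at equal depth (1.30, adjusted p = 0.0549), and Neurod1 with 10 kb of flank (0.50, adjusted p = 0.166) or without the variance trend (adjusted p = 0.0610).

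Olig2 had 0.95, 1.39 and 1.48 log2 RPKM in DNMT_WT cells, against 0.63, 0.99 and 0.50 in TET_WT cells. The lowest DNMT_WT library lay just under the highest TET_WT library, and the difference of 0.56 was not called (95% interval 0.08 to 1.04, limma adjusted p = 0.0979). A fit of only these 6 libraries called it (limma adjusted p = 0.0344), as did limma-voom (0.48, adjusted p = 0.0205). Olig1 had 0.89, 0.58 and 0.59 in DNMT_WT cells, against 0.73, 0.69 and 0.43 in TET_WT cells. The groups overlapped and the difference was 0.07 (95% interval -0.24 to 0.38, limma adjusted p = 0.795). By limma-voom on pooled reads Olig1 was called higher in DNMT_WT cells (0.37, adjusted p = 0.0492). With 10 kb on either side the sign was the opposite, as given below.

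**Figure D2:**
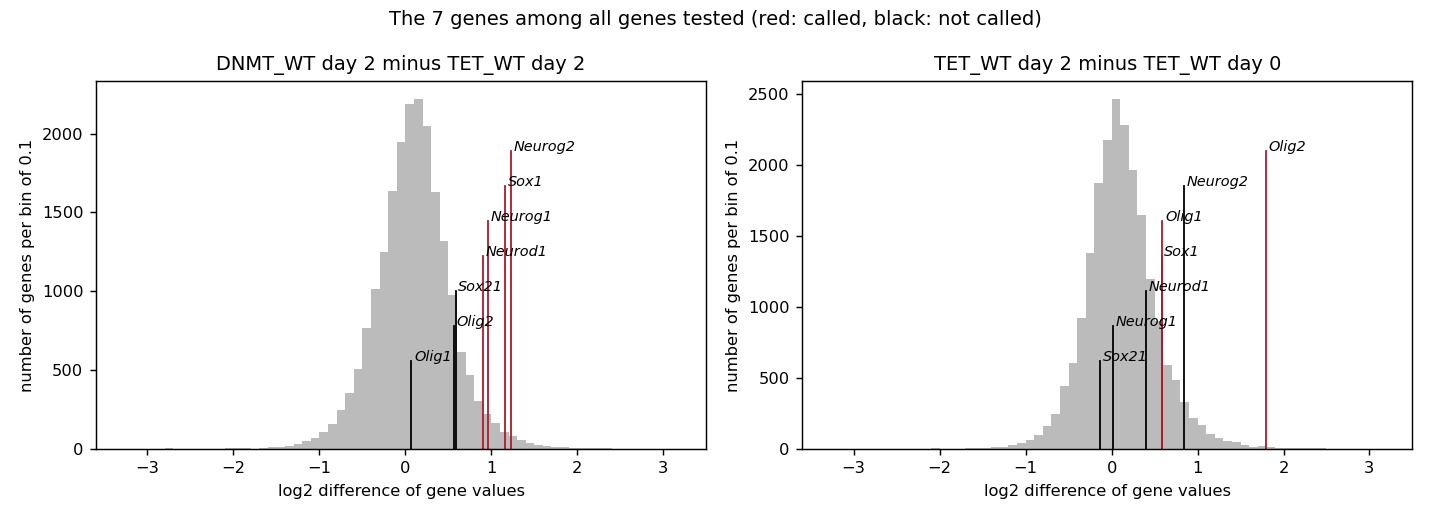
Histograms of the log2 differences of all 20717 genes (number of genes per bin of 0.1), with the 7 genes as vertical lines, red where called and black where not; the heights of the lines have no meaning. DNMT_WT minus TET_WT at day 2 is on the left, where Olig1 is the gene nearest 0, and TET_WT day 2 minus day 0 on the right, where Olig2 at 1.79 lies in the far upper tail.

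Single tiles showed where in each gene the signal moved. Between day 2 and day 0, 5 of the 32 tiles were called higher by limma, adjusted over all tiles, and 0 lower; over all tiles, 5.33% were called higher and 2.68% lower. With reads thinned to equal depth 2 of the 32 tiles were called, and 1 without the variance trend, the Olig2 gene body tile below being among them. Olig2 held 2 of the 5. The tile over most of the Olig2 gene body (chr16:91226001-91228000), the next after the tile that holds the promoter shown above, had 28, 26 and 17 reads at day 2, against 0, 3 and 2 at day 0. On the log2 RPKM scale this was 0.21, 0.58 and -0.47 at day 2, against -5.63, -3.10 and -4.41 at day 0. The tile was close to empty in ES cells and well covered in day 2 EpiLC, although the day 0 libraries were the deeper ones. The difference was 4.49 (SE 0.62, limma adjusted p = 2.77e-09), a size that depends on the value given to a tile without reads; with 2 reads added to each tile it was 3.64, and it stayed called under each alternative run. The next tile, over the end of Olig2 (chr16:91228001-91230000), had 121, 98 and 87 reads at day 2, against 43, 35 and 56 at day 0, and rose by 1.97 (SE 0.26, limma adjusted p = 6.92e-10). The start tile of Olig2, which holds the promoter, differed by less and was not called, with 21, 24 and 24 reads at day 2, against 32, 15 and 41 at day 0. The annotation places Gm52261 over the end of Olig2.

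The other 3 tiles called at day 2 lay in Sox1, Olig1 and Neurod1. Downstream of Sox1 (chr8:12400001-12402000) the reads were 29, 20 and 38 at day 2, against 8, 13 and 16 at day 0, a difference of 2.01 (SE 0.39, limma adjusted p = 3.58e-05). The 4 other Sox1 tiles were above 0 but none was called, so most of the rise of the Sox1 gene value came from this tile. The tile over the lower end of Olig1 in coordinates (chr16:91268001-91270000) rose by 1.36 (SE 0.36, limma adjusted p = 0.00522), a call lost without day 0 replicate 1 or day 2 replicate 1 (adjusted p = 0.104 and 0.112). The tile upstream of Neurod1 (chr2:79458001-79460000) was the best covered of the 32 in every library. It rose by 0.58 (SE 0.17, limma adjusted p = 0.0155), also lost without day 0 replicate 1 or day 2 replicate 1 (adjusted p = 0.0627 and 0.313) or with median centring (0.67, adjusted p = 0.164). The tile over the Neurog2 start held 10, 4 and 4 reads at day 2, against 2 in each day 0 library, and was not called (2.21, SE 0.85, limma adjusted p = 0.102). The tiles of Sox21 and Neurog1 with the smallest p differed by 0.97 and 0.80 and were not called (limma adjusted p = 0.108 and 0.164).

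Between day 1 and day 0 none of the 32 tiles was called by limma, against 0.601% of all tiles called higher and 0.409% lower. The Olig2 gene body tile had 1 and 9 reads at day 1 and came nearest (2.35, SE 0.70, limma adjusted p = 0.0674); it passed without day 0 replicate 2 (2.99, adjusted p = 0.00618). It also passed with 2 reads added to each tile (2.33, adjusted p = 0.00469). Without single libraries 3 further tiles were called lower at day 1. The Olig1 tile described next passed without day 0 replicate 3 (-2.05, adjusted p = 0.0179). Without day 1 replicate 3, which leaves the shallow replicate 2 alone, the Sox1 start tile (-2.37, adjusted p = 0.00304) and the tile over the end of Olig2 (-1.34, adjusted p = 0.0114) passed. Between day 2 and day 1, 4 tiles were called higher and 0 lower, against 2.41% and 0.551% of all tiles. They were the tile over the end of Olig2 (2.62, SE 0.29, limma adjusted p = 2.39e-12), the tile over most of Olig1 (2.56, SE 0.52, limma adjusted p = 0.000247), the tile downstream of Sox21 (1.83, SE 0.42, limma adjusted p = 0.00227) and the Sox1 start tile (1.56, SE 0.46, limma adjusted p = 0.0357). The Sox1 start tile had a single read in the shallow day 1 replicate 2, and the difference was 0.46 without that library (adjusted p = 0.842). The Sox21 tile lost its call without day 1 replicate 3 (1.04, adjusted p = 0.238).

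Between the lines, 7 of the 32 tiles were called higher in DNMT_WT cells and 2 lower, against 1% and 2.24% of all tiles, and each of the 7 genes held 1 of the higher ones. None of the 32 was called at equal depth or without the variance trend. The differences themselves are the same without the trend. At equal depth they were 1.60 for the called Sox1 tile, 1.68 for that of Neurod1, 1.72 for Neurog1, 1.53 for Neurog2, 1.46 for Olig2, 2.10 for Olig1 and 0.92 for Sox21, and -0.56 and -0.91 for the lower Olig1 tiles. Around Sox1 the downstream tile that rose by day 2 had 133, 63 and 108 reads in DNMT_WT cells, against 29, 20 and 38 in TET_WT cells (1.66, SE 0.39, limma adjusted p = 0.00281). At Sox21 the tile downstream of the gene (chr14:118230001-118232000) was higher by 1.34 (SE 0.38, limma adjusted p = 0.0227), a call lost without any 1 of the 6 libraries (adjusted p from 0.0512 to 0.155). The Sox21 start tile, which holds the promoter shown above, had 5, 3 and 4 reads in DNMT_WT cells, against 1 read in each TET_WT day 2 library, and at most 11 reads in any of the 11 libraries. The tile next to it inside the gene had 71, 30 and 68 reads in DNMT_WT cells, against 52, 34 and 57 in TET_WT cells. The gap at the Sox21 start therefore lies between tiles of ordinary coverage. The annotation places Gm4675 over this start.

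In Neurog1, Neurog2 and Neurod1 the higher tile lay at a different place in each. Neurog1 was higher in the tile over its gene body (chr13:56250001-56252000), with 1.79, 1.57 and 2.08 log2 RPKM in DNMT_WT cells, against 0.57, 0.05 and 0.76 in TET_WT cells (1.35, SE 0.34, limma adjusted p = 0.00772). Neurog2 was higher in the tile upstream of its start (chr3:127630001-127632000), with 1.63, 1.03 and 1.65 in DNMT_WT cells, against 0.16, 0.13 and -0.75 in TET_WT cells (1.59, SE 0.39, limma adjusted p = 0.00442). Neurod1 was higher in the tile over its start (chr2:79456001-79458000), with 1.25, 1.38 and 1.26 in DNMT_WT cells, against -0.69, -0.42 and -0.24 in TET_WT cells (1.75, SE 0.39, limma adjusted p = 0.00147). The libraries of the lines did not overlap in any of these 3 tiles. The Neurod1 call held without each library in turn. The Neurog1 call was lost without DNMT_WT replicate 3 or TET_WT day 2 replicate 2 (adjusted p = 0.0958 and 0.117). The Neurog2 call was lost without DNMT_WT replicate 1 or 3 or TET_WT day 2 replicate 3 (adjusted p = 0.0558, 0.0550 and 0.108).

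**Figure D3:**
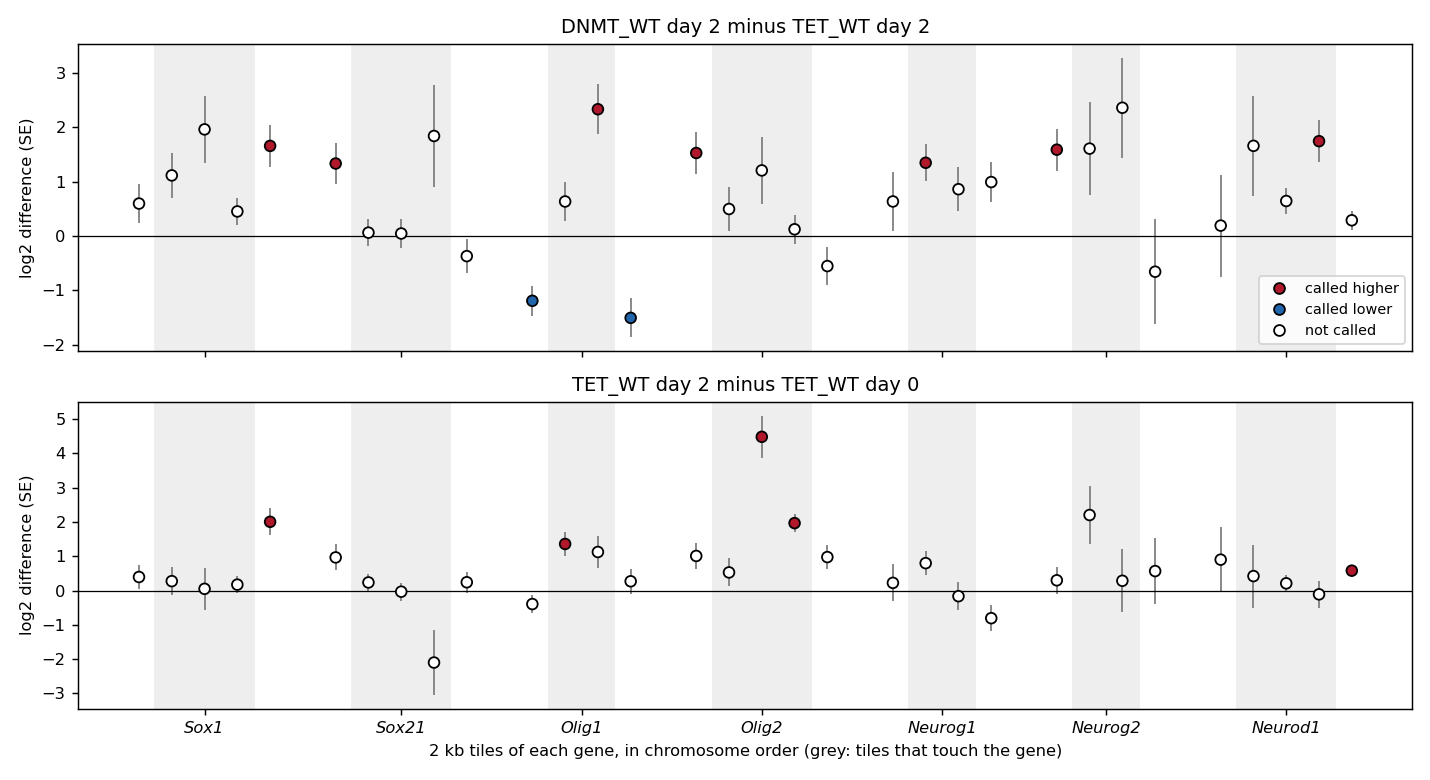
Log2 differences of the 32 tiles in chromosome order within each gene, with standard errors; grey marks tiles that touch the gene, and filled points were called by limma (red higher, blue lower). DNMT_WT minus TET_WT at day 2 is above, with 7 tiles higher and 2 lower, and TET_WT day 2 minus day 0 is below, with 5 tiles higher, the highest at 4.49 in Olig2.

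Olig1 combined tiles of opposite sign, which its gene value of 0.07 hides. The tile over most of the gene (chr16:91270001-91272000) had 2.33, 1.98 and 1.93 log2 RPKM in DNMT_WT cells, against 0.10, -0.31 and -0.56 in TET_WT cells, a difference of 2.34 (SE 0.46, limma adjusted p = 0.000181). The outer tiles went the other way. On the side of Olig2 (chr16:91266001-91268000) the values were 0.40, 0.08 and -0.15 in DNMT_WT cells, against 1.21, 1.27 and 1.42 in TET_WT cells (-1.19, SE 0.27, limma adjusted p = 0.00202). On the far side (chr16:91272001-91274000) they were -0.11, -1.24 and -0.97 in DNMT_WT cells, against 0.45, 1.09 and 0.65 in TET_WT cells (-1.50, SE 0.36, limma adjusted p = 0.00332). In all 3 tiles the lines did not overlap. The call of the far tile was lost without TET_WT day 2 replicate 2 (-1.32, adjusted p = 0.0756), and both outer calls with median centring (-0.98 and -1.29, adjusted p = 0.128 and 0.0616). Olig2 itself was higher in the tile upstream of its start (chr16:91222001-91224000), by 1.53 (SE 0.38, limma adjusted p = 0.00557), a call lost without DNMT_WT replicate 2 or 3 (adjusted p = 0.0563 and 0.0678).

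The lower signal beside Olig1 went on through the DNA between the OLIG genes. This stretch of 34 kb was looked at after the values with 10 kb of flank had been seen, so its counts are a description. Of its 15 tested tiles, 10 were lower in DNMT_WT cells by the call over all tiles and 0 were higher, against 2.24% and 1% of all tiles, with a median difference of -1.77. Its mean level was -1.65, -1.34 and -1.54 log2 RPKM in DNMT_WT cells, against 0.22, 0.45 and 0.41 in TET_WT cells at day 2. At day 0 the TET_WT level was 0.14, 0.28 and -0.06, and at day 1 it was 0.39 and 0.13, so the TET_WT libraries lay close together on all days and the DNMT_WT libraries stood apart from them. Between day 2 and day 0, 1 of the 15 tiles was called higher and 0 lower, against 5.33% and 2.68% of all tiles. With 10 kb on either side, the value of Olig1 was lower in DNMT_WT cells by 1.20 (value -1.20, limma adjusted p = 2.32e-06) and the difference of Olig2 was -0.12 (limma adjusted p = 0.614).

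**Figure D4:**
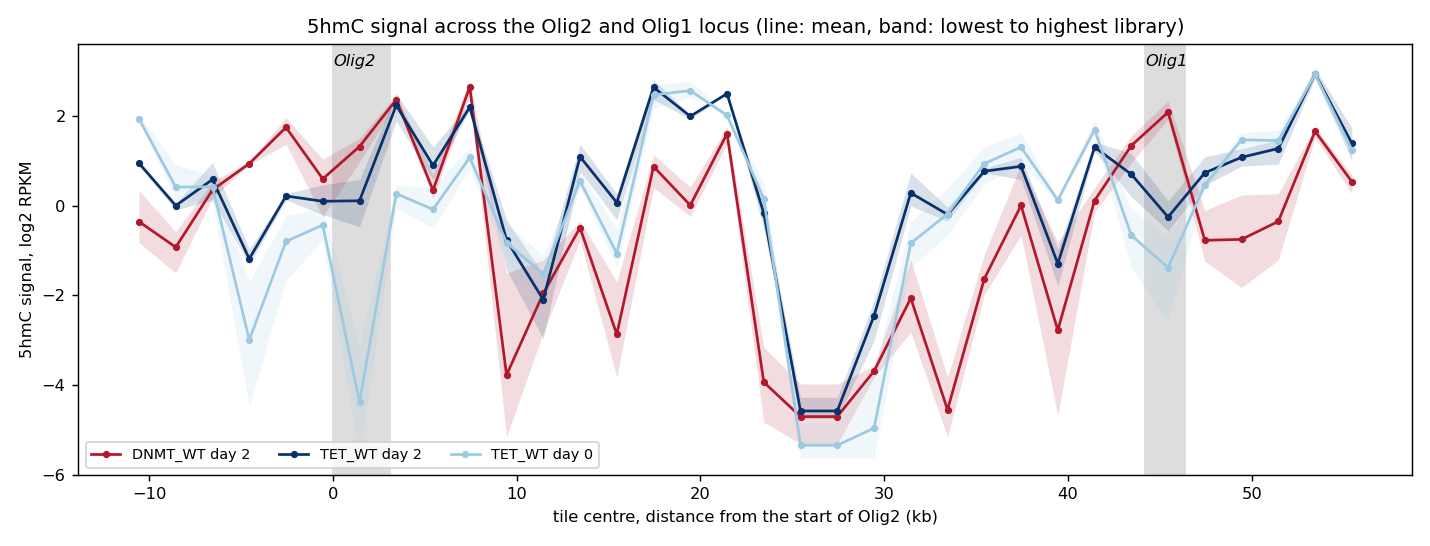
5hmC signal (log2 RPKM) of each 2 kb tile across the OLIG locus against distance from the start of Olig2 in kb; lines are group means, bands run from the lowest to the highest library, and grey marks the genes. DNMT_WT cells are below TET_WT cells of either day over most of the stretch between the genes and above them inside Olig1, and the day 0 line alone drops to -4.38 inside Olig2.

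Related genes of the same pathways were read from 5 lists, by the same test over all genes. Between day 2 and day 0, 7 of 15 other neural bHLH factors were called higher and 0 lower, with a median difference of 0.32. Olig3, the remaining OLIG gene, rose by 1.20 (SE 0.12, limma adjusted p = 5.21e-05) and Bhlhe23 by 1.17 (SE 0.17, limma adjusted p = 0.000584). Of 15 bHLH partners and inhibitors, 5 were higher and 0 lower (median 0.39). The smallest p belonged to Hes3, a repressor of the Hes family, at 1.08 (SE 0.12), and Id1, which keeps E proteins from DNA, at 1.74 (SE 0.31). Of 12 other SOX factors, 5 were higher and 1 lower (median 0.45), with Sox13 at 0.45 and Sox10, the neural crest and oligodendrocyte factor, at 0.67. Of 12 Notch pathway genes, 4 were higher and 0 lower (median 0.28). They included the ligand Dll1 at 0.90 and Lfng, which modifies Notch receptors, at 0.91. Of 12 neural structural and progenitor genes, 3 were higher and 0 lower (median 0.32), among them Pax6 at 0.52 and the RNA-binding protein gene Msi1 at 0.48. These shares, from 3 of 12 to 7 of 15, stand beside 15.3% of all genes called higher.

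In the earlier step from day 0 to day 1 none of the genes of these lists was called by limma. The smallest p belonged to Helt (-0.63), Id4 (-0.62), Sox2 (1.12), Notch2 (-0.23) and Gfap (-0.37), with adjusted p from 0.232 to 0.342. Between day 2 and day 1, the numbers called higher were 6 of 15 neural bHLH factors, 5 of 15 partners and inhibitors, 1 of 12 SOX factors, 2 of 12 Notch genes and 2 of 12 structural and progenitor genes, with 0 lower in each list, beside 8.99% of all genes called higher. Helt (1.42), Olig3 (0.93), Hes3 (1.17), Heyl (0.51), Sox13 (0.34), Lfng (0.93), Dll1 (0.61), Msi1 (0.54) and Pax6 (0.39) had the smallest p among the called genes of their lists.

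Between the lines the counts stand beside 14.9% of all genes called higher and 4.07% lower, and a median of 0.10 over all genes. Of 15 other neural bHLH factors, 6 were higher in DNMT_WT cells and 1 lower (median 0.48). Neurog3, the endocrine relative of the neurogenins, was higher by 1.32 (SE 0.15, limma adjusted p = 0.000172), and Neurod6 differed by -1.53 (SE 0.20, limma adjusted p = 0.00041). Of the partners and inhibitors, 8 were higher and 1 lower (median 0.45), with Rest, a repressor of neuronal genes, at 0.94 and Hes3 at 0.56. Of the other SOX factors, 7 were higher and 1 lower (median 0.53). Sox3, an X-linked relative of Sox1, was higher by 2.46 (SE 0.25, limma adjusted p = 8.43e-05) and Sox14 by 0.95 (SE 0.14, limma adjusted p = 0.000864). Of the Notch genes 5 were higher and 0 lower (median 0.40), with Dll3 at 1.06 and Notch3 at 0.44. Of the structural and progenitor genes 3 were higher and 0 lower (median 0.06), with Pax6 at 0.81 and Zic1 at 1.52.

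Marker genes of the cell states moved in the same comparisons, and their part in the results above was not tested. 5hmC of a marker gene is not its expression. At day 2 against day 0, 10 of 10 naive ES cell markers and 4 of 8 EpiLC markers were called higher, beside 15.3% of all genes. The mean level of the naive markers was 0.49 to 0.59 log2 RPKM at day 2 and -1.63 to -1.36 at day 0, and that of the EpiLC markers 0.50 to 0.59 at day 2 and -0.04 to 0.02 at day 0. Of 10 fibroblast and feeder markers 1 was higher, with mean levels of -0.29 to -0.22 at day 2 and -0.48 to -0.15 at day 0. Between the lines, 4 of 10 naive markers were higher in DNMT_WT cells, with levels of 0.94 to 0.99, against 0.49 to 0.59 in TET_WT cells. Of the EpiLC markers 1 was higher and 1 lower, and of the feeder markers 1 was higher and 1 lower. Over all genes, 14.9% were called higher and 4.07% lower between the lines.

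Across the 11 libraries each gene had close companions among other protein-coding genes, given by the Pearson correlation of gene values. The libraries form 4 groups and share depth and line, so these values describe this set of libraries. Sox1 was most like Sox14 (0.993) and Tnfrsf25 (0.990), and Olig2 most like Ucp2 (0.990) and Dnmbp (0.989). More than 0.9 was reached by 1755 genes for Sox1 and 1727 for Olig2, so their pattern was a common one. Olig1 was most like Smox (0.981) and Pcolce (0.963), with 276 genes above 0.9, and Neurog2 most like Srebf2 (0.971) and Cryba2 (0.965), with 169. For Sox21, Neurod1 and Neurog1 only 20, 28 and 38 genes exceeded 0.9. Sox21 was most like Tor4a (0.954) and Gata6 (0.937), Neurod1 most like R3hdm2 (0.962) and Riok2 (0.950), and Neurog1 most like Syf2 (0.976) and Nwd1 (0.946).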

How the data were processed

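The authors deposited log2 RPKM for 1362779 tiles of 2 kb. Trimming tools (cutadapt 2.3 and Trim Galore 0.6.5), the aligner Bowtie2 2.4.1 and the build GRCm38 are listed in the submitters' processing notes, and HMCP libraries were made with a kit, per the labels' protocols. How reads were counted in tiles is not given in the sources used here. Values of each library lay within 0.1% of whole reads in 100% of tiles with reads, and empty tiles held what 0.9 reads would give, so reads were recovered from the log2 values. The read totals exceeded the denominator of the deposited RPKM by the same factor in each library, which adds a constant to every value.

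Tested tiles were those of chromosomes 1 to 19 and X, without the 10% lowest and 0.1% highest mean, leaving 1183891. A gene value is the mean log2 RPKM over at least 3 tested tiles within 2 kb of the RefSeq span, available for 20717 of 21631 protein-coding genes. All 11 libraries were fitted together with limma 3.58.1 (lmFit, eBayes with trend) in R 4.3.3 (package data.table, version 1.17.8); a call is a two-sided Benjamini-Hochberg adjusted p under 0.05 over all genes or all tiles, and intervals are 95%. The fit was tested on simulated data with fixed seeds. For day 2 against day 0 it recovered 10% of genes with a log2 change of 0.5, 50% with 1 and 88% with 2. Among tiles, of which every 20th was used, it recovered 4% with a change of 1, 32% with 2 and 66% with 4. A gene or tile that was not called may therefore still have changed by such amounts. With 7342015 to 51604034 reads per library, counting error limits single tiles. Same-numbered libraries did not deviate together, so no block was used.

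The 7 genes and the gene lists were chosen with earlier results of these data known. Named were all 7 genes, per list the 2 called genes with the smallest p (or the smallest p where none was called), per gene the tile with the smallest p and the 2 genes most like it, with predicted genes and those within 100 kb left out. Tiles named beyond this rule (the Olig2 gene body and start tiles, the Sox21 start tile and its neighbour, the outer Olig1 tiles) and the stretch between the OLIG genes were chosen after their values were seen. The alternatives left out each library, used a replicate block, fitted only the groups compared, centred medians, thinned reads to the smallest library, added 2 reads to each tile, dropped or raised the tile filter, took 10 kb of flank, dropped the variance trend, or used limma-voom on pooled reads without further scaling.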

Additional observations from a re-analysis of the deposited data

How the results depend on the processing

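Olig2 kept its calls between day 2 and day 0 and between day 2 and day 1, and Sox1 its call between the lines, under all alternatives run. Of the values of single genes and named tiles under alternatives, 955 kept direction and side of the threshold, 93 lost and 23 gained a call, and 40 changed sign; for none of these was the cause tested. Among the 7 genes, the 3 calls of day 2 against day 0 became 1 at equal depth and 1 with median centring (1 to 4 without single libraries). The 2 of day 2 against day 1 became 1 with 2 reads added, at equal depth, with median centring and by voom. The 4 between the lines were 1 to 5 without single libraries, and 6 by voom or with only the groups compared. They were 5 with the replicate block or 2 reads added, and 3 without the variance trend. With tiles at or above the median they were 3 of 6 genes tested, and with 10 kb of flank 3 higher and 1 lower.

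Among the 32 tiles, the calls of day 2 against day 0 were 2 at equal depth, 1 with no variance trend and 3 to 8 without single libraries. Those of day 1 against day 0 were 1 with 2 reads added and 0 to 2 without single libraries, and those of day 2 against day 1 were 1 at equal depth, 0 with no variance trend and 3 to 8 without single libraries. Those between the lines, 9 in all, were 0 at equal depth, 0 with no variance trend and 5 to 11 without single libraries. Without the trend the differences are unchanged. The Olig2 gene body tile stayed called for day 2 against day 0 at equal depth (2.98, adjusted p = 0.0191) and without the trend (adjusted p = 0.0178).

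Over all genes, calls of day 1 against day 0 numbered 0, against 383 with 2 reads added, 14 with 10 kb of flank, 3 with the replicate block, 2 with tiles at or above the median, 163 by voom, and 0 to 279 without single libraries (279 without day 0 replicate 2). Day 2 against day 0 gave 3689 calls, 1263 with median centring, 6898 by voom and 2264 to 6543 without single libraries (6543 without day 0 replicate 2). Day 2 against day 1 gave 1986, 827 with 2 reads added, 1051 at equal depth, 246 with median centring, 1170 with no variance trend, 965 by voom and 966 to 3568 without single libraries (966 without day 1 replicate 2, 3568 without day 0 replicate 2). The lines gave 3929, 2572 at equal depth, 2553 with median centring, 6904 with only the groups compared, 6674 by voom and 2060 to 6215 without single libraries (2060 without TET_WT day 2 replicate 1, 6215 without day 0 replicate 2). The share of calls that were higher was 85.9% for day 2 against day 0 (95.6% with median centring, 73.6% by voom), 93.8% for day 2 against day 1 (80.2% by voom) and 78.5% between the lines (92.8% with median centring, 68.1% with tiles at or above the median). Other scalings moved the median of all genes by more than 0.1. Median centring put it at 0.31 between the lines, against 0.10, and 2 added reads at 0.31 for day 1 against day 0, against 0.09, and at -0.14 for day 2 against day 1, against 0.00.

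Signs changed as follows. With 10 kb of flank, day 2 against day 0 gave -0.042 for Neurod1, -0.180 for Neurog1, -0.0065 for Olig1 and 0.056 for Sox21, day 1 against day 0 gave -0.082 for Neurog1, day 2 against day 1 gave 0.059 for Neurog2, and the lines gave -1.20 for Olig1 and -0.117 for Olig2. At equal depth, day 2 against day 1 gave 0.0064 for Neurod1 and 0.467 for Neurog2, day 1 against day 0 gave -0.243 for Olig2, 0.028 for Sox21 and -0.435 for the Neurog2 start tile, and day 2 against day 0 gave 0.283 for Sox21. By voom, day 2 against day 1 gave 0.0039 for Neurod1 and 0.376 for Neurog2, and Sox21 gave 0.034 for day 1 and 0.194 for day 2 against day 0. With 2 reads added, day 1 against day 0 gave 0.038 for Olig1 and 0.040 for Sox21, and day 2 against day 0 gave 0.115 for Sox21. With tiles at or above the median, Sox21 gave 0.355 for day 2 against day 0.

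Without single libraries the values ran from -0.284 to 0.168 for Neurod1, -0.268 to 0.0125 for Neurog1, -0.196 to 0.195 for Neurog2 and -0.380 to 0.575 for Sox21 (day 2 against day 1). For day 1 against day 0 they ran from -0.184 to 0.444 for Neurog1, -0.061 to 0.597 for Olig2, -0.240 to 0.331 for Sox1 and -0.711 to 0.244 for Sox21, for day 2 against day 0 from -0.328 to 0.300 for Neurog1, and between the lines from -0.033 to 0.127 for Olig1.

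Replicate numbers did not pair the libraries: deviations of same-numbered libraries correlated at 0.03, 0.03 and -0.05 for day 2 and day 0, and at 0.01, 0.07 and 0.01 between the lines. With the 2 libraries of day 1 they were 0.12 and 0.08 for day 2 and -0.29 and -0.27 for day 0. The fit with the replicate block called 3495 genes for day 2 against day 0, 1886 for day 2 against day 1 and 3731 between the lines. It called 3, 2 and 5 of the 7 genes, the added one being Sox21 between the lines (0.58, adjusted p = 0.0291), and turned Neurog2 for day 2 against day 1 to 0.025 and Sox1 for day 1 against day 0 to -0.010.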

Other observations

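Beyond the 2 kb windows, tiles around Sox1 were also called higher. Of the 8 tiles between 2 and 10 kb from Sox1, 4 were called higher at day 2 than at day 0 and 0 lower, against 5.33% and 2.68% of all tiles. Between DNMT_WT and TET_WT cells 4 were called higher and 0 lower, against 1% and 2.24% of all tiles. Their mean level was 2.38, 2.43 and 2.63 log2 RPKM in DNMT_WT cells, against 1.35, 1.28 and 1.49 in TET_WT cells at day 2. At day 0 it was 0.60, 1.02 and 0.27, below both.

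Around Neurog2, 3 of 8 such tiles were higher in DNMT_WT cells and 0 lower, with mean levels of 0.91, 0.91 and 0.56, against -0.28, -0.03 and -0.06 in TET_WT cells at day 2. These flanks were better covered than Neurog2 itself, whose gene values lay between -2.56 and -1.78 in the same TET_WT libraries. Around Olig1, 5 of 8 were lower and 0 higher, with mean levels of -0.97, -0.83 and -1.15 in DNMT_WT cells, against at least 0.71 in each TET_WT library at day 2. Around Olig2, 3 of 8 were lower and 0 higher between the lines, and around Sox21 1 was lower and 0 higher. In day 2 against day 0, 1 of the 8 tiles was lower around each of Sox21, Olig2 and Neurog1, with 2, 1 and 0 higher, and 1 was higher and 0 lower around Neurog2. None of the 8 tiles around Neurog1 and none of the 8 around Neurod1 was called between the lines. These tiles were read after the values with 10 kb of flank had been seen. Some of those lower around Olig1 and Olig2 also lie in the stretch between the OLIG genes and were counted there. Over all tiles, 1% were called higher and 2.24% lower between the lines. For day 2 against day 0 the shares were 5.33% and 2.68%.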
